A study of Bos taurus with 2 samples.

Results

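CatSper is the calcium channel of the sperm tail. The transcripts of its subunits were read from 2 bovine testis arrays, 1 of crossbred bulls and 1 of Zebu bulls. The members were all non-control probes whose gene name on the array starts with CATSPER. This rule found 4 probes for 4 genes, CATSPER1, CATSPER2, CATSPER3 and CATSPER4, among 51282 probes and 32429 gene names. Of the 6 names looked for, CATSPERB and CATSPERG were not found as gene names, and their probes were identified from the description of the spot. The crossbred array carried RNA from the testes of 3 Holstein Friesian crossbred bulls with 50–75% exotic inheritance. The Zebu array carried RNA from the testes of 3 bulls of the Tharparkar breed. All bulls were 24 months old, 1 testis was taken from each, and equal amounts of RNA were pooled within a group before labelling with Cy3. The bulls of a pool cannot be told apart. With 1 array per group, no difference below has a replicate check or a p-value, and precision is limited by the number of arrays.

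CatSper lets calcium into the sperm tail when the pH inside the cell rises and the membrane depolarises, and this calcium drives the hyperactivated beat that sperm need to pass through the coat of the egg. The pore is built from the proteins of CATSPER1, CATSPER2, CATSPER3 and CATSPER4, each of which supplies a single repeat of the pore, and sperm of mice that lack any of them are infertile. Around the pore sit auxiliary subunits with large parts outside the cell, such as the products of CATSPERB, CATSPERG and CATSPERD, and small parts inside it, such as EFCAB9, a calcium-binding protein of the EF-hand family. Genes of the channel such as CATSPER1 are transcribed late in the making of sperm, above all in spermatids, while the channel itself works in mature sperm. The stage at which each gene of the channel is transcribed was not measured here.

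The oligos that measured the pore subunits are shown because every value below is the brightness of 1 such sequence. Each is 60 bases long, and none of them measures the full transcript. CATSPER2 and CATSPER3 each had a further probe, printed below its named probe, whose gene name is a transcript number and whose description gives the subunit. The capitals mark the 35 bases that the 2 probes of CATSPER2 share.
CATSPER1: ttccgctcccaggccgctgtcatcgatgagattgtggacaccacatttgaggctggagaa
CATSPER2: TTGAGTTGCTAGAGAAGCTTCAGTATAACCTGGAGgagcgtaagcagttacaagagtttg
CATSPER2, further probe: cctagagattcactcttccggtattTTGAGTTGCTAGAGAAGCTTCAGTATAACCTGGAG
CATSPER3: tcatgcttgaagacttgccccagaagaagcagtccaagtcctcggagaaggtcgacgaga
CATSPER3, further probe: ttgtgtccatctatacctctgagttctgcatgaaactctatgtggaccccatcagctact
CATSPER4: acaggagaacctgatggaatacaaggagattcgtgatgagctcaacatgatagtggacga

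In the array's annotation, whose genome build is HGSC Btau_3.1, the CATSPER1 probe lies at chr29:46002786-46002974 and the CATSPER4 probe at chr2:131157753-131158130, both with the order of positions of the minus strand. These intervals span 189 and 378 bases, more than the 60 bases of a probe. The CATSPER2 probe lies at chr21:55825127-55825186 on the minus strand and the CATSPER3 probe at chr7:45649186-45649245 on the plus strand, each over 60 bases. The further probes of CATSPER2 and CATSPER3 carry no position. Exons and untranslated regions were not looked up, because no genome of this build was used here. The probes of CATSPER2 overlap and so are not independent of each other, whereas those of CATSPER3 share no stretch.

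Levels are given as the log2 of the processed signal minus the 75th percentile of the array, a signal of 1176 for crossbred and 1233 for Zebu, and differences, also in log2, are the crossbred minus the Zebu level. The error given with a difference is the one the scanner software attaches to the spots. It covers the measurement of the spot and not the animals, the pooling or the labelling. Over 5960 probes with several spots, the SD between spots of a probe corresponded to 0.34 for a difference, which is the tolerance used. A probe was counted as higher at a difference of 1.5 or more, which is 2.83-fold, if the software had marked it as well above background on the brighter array. All 4 named probes had 1 spot, which passed this mark on both arrays.

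CATSPER1 and CATSPER3 were higher in crossbred testis by more than 1.5, and CATSPER2 and CATSPER4 were not. CATSPER1 had a processed signal of 3708 in crossbred and 1044 in Zebu testis, or levels of 1.66 and -0.24. The difference was 1.90 ± 0.20 (software error, 1 spot), a fold of 3.72. CATSPER1 encodes a pore subunit with a histidine-rich N-terminal tail. Its difference exceeded those of 97.1% of the probes well above background on both arrays.

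CATSPER3 had a signal of 2054 in crossbred and 483 in Zebu testis, or levels of 0.81 and -1.35. The difference was 2.16 ± 0.20 (software error, 1 spot), a fold of 4.46, which exceeded those of 98.3% of the probes. The further CATSPER3 probe was dimmer and had 2 spots far apart on the array. In the first spot the signal was 181 against 34.5, and in the other it was 161 against 36.4. The differences of the spots were 2.46 and 2.22, and their mean was 2.34 ± 0.21 (software error, 2 spots). Both probes of CATSPER3 thus lay past 1.5, and they differed by 0.18 ± 0.29 (software error). With normexp background correction, which adds a constant to every signal and so shrinks the differences of dim probes, the named probe gave 2.05 and the further probe 1.12.

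CATSPER2 had a signal of 589 in crossbred and 426 in Zebu testis, or levels of -0.997 and -1.53. The difference was 0.53 ± 0.21 (software error, 1 spot), a fold of 1.45. Its further probe gave 0.63 ± 0.14 (software error, 2 spots), with 0.62 and 0.65 in the separate spots. The 2 probes differed by 0.10 ± 0.25 (software error). The differences were above the tolerance of 0.34 and below 1.5.

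CATSPER4, the remaining pore subunit, lay close to the background. Its signal was 36.4 in crossbred and 30.5 in Zebu testis, or levels of -5.01 and -5.34, where the lowest levels marked as well above background were -5.78 and -5.94. The difference of 0.32 ± 0.36 (software error, 1 spot) was smaller than its own error and than the tolerance. The side of 0 was therefore not settled for CATSPER4 at this signal, and its value lay below 1.5.

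**Figure D1:**
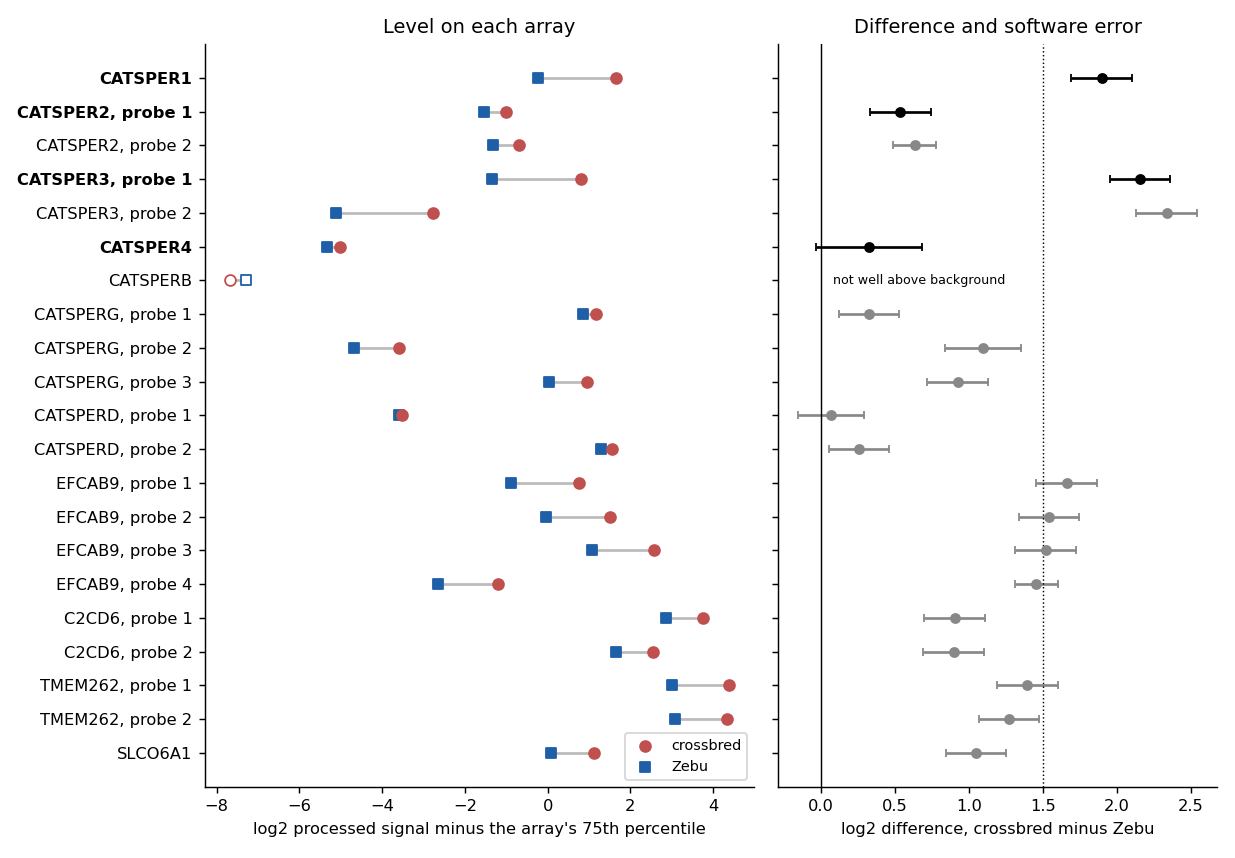
Left, level of each probe of a channel part on the crossbred array (circles) and the Zebu array (squares), in log2 of the processed signal minus the 75th percentile of the array, with open symbols for the probe not well above background on either array. Right, the log2 difference, crossbred minus Zebu, with the software error as bars, a dotted line at 1.5 and the 4 probes named CATSPER in black; the 20 probes well above background on both arrays all lie above 0, from 0.07 to 2.34.

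Counted over the named probes, 2 of 4 were higher by 1.5 or more and none was lower. Of all 39804 probes detected on at least 1 array, 6.14% were higher and 2.99% were lower by the same rule. The median difference of the 4 probes was 1.22, against -0.08 over all detected probes. With 4 probes, 1 further probe past or short of 1.5 moves the share by 25 points, so the count is a description of these probes.
The named probes of the subunits differed from each other in the size of the difference. The difference of CATSPER3 exceeded that of CATSPER2 by 1.62 ± 0.29, and that of CATSPER1 exceeded it by 1.36 ± 0.29 (software error of 2 probes each). CATSPER3 exceeded CATSPER4 by 1.83 ± 0.41, and CATSPER1 exceeded CATSPER4 by 1.57 ± 0.41. The gap between CATSPER1 and CATSPER3 was -0.26 ± 0.29, and that between CATSPER2 and CATSPER4 was 0.21 ± 0.41, both within their error. By this error, the probes of CATSPER3 and CATSPER1 lay above those of CATSPER2 and CATSPER4, with no order within either pair. The software error does not cover differences between probes of 1 gene, and the 3 probes of CATSPERG ran from 0.33 to 1.09. An order of the genes is therefore not settled. The proteins of the 4 genes sit in a single pore, and the arrays measured transcripts, not subunits in the membrane.

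**Figure D2:**
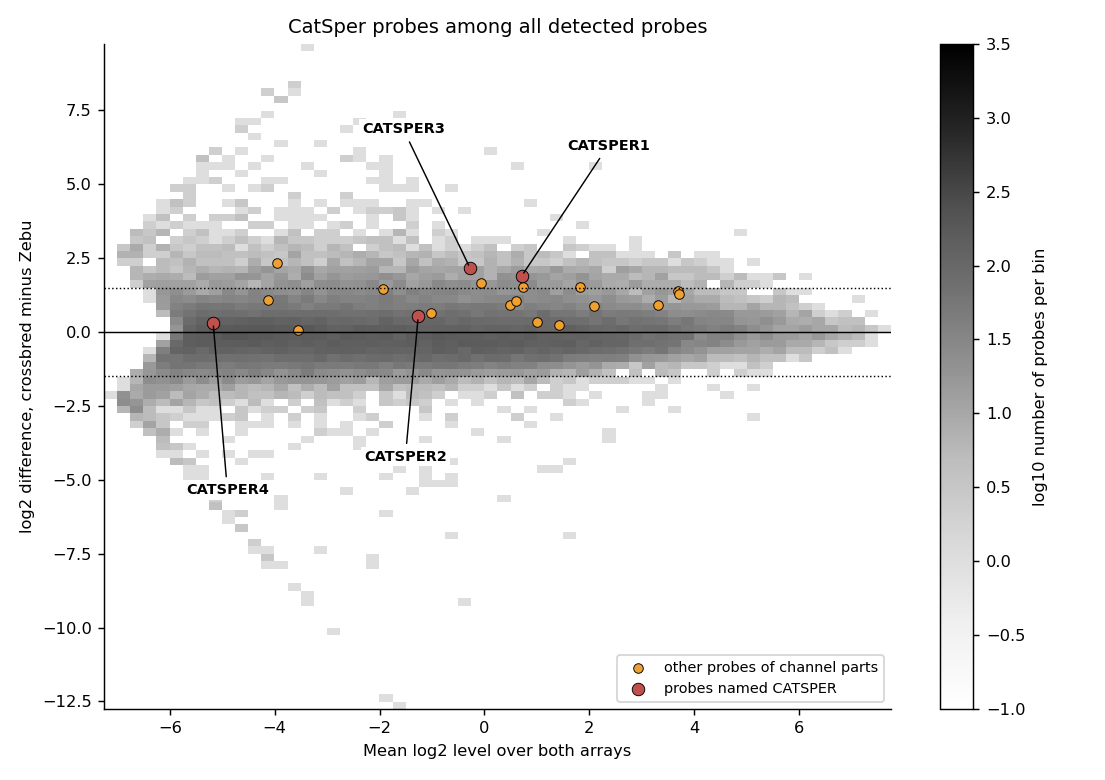
Log2 difference, crossbred minus Zebu, against the mean log2 level over both arrays for the 39804 detected probes, as grey bins shaded by the log10 of the number of probes, with the 4 probes named CATSPER in red, the other probes of channel parts in orange and dotted lines at 1.5 and -1.5. CATSPER1 and CATSPER3 lie above the upper dotted line, at 1.90 and 2.16, and CATSPER2 and CATSPER4 lie between 0 and that line.

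The auxiliary subunits were read from probes that the name rule does not reach. CATSPERB, whose product is a large subunit outside the cell, had 1 probe with 2 spots. Its signals were 6.87 and 4.78 in crossbred and 7.09 and 8.66 in Zebu testis. No spot was well above background on either array, so CATSPERB gives neither a level nor a fold here.

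CATSPERG, which encodes another of the subunits outside the cell, had 3 probes of 1 spot, identified by the full gene name in the description. The first gave levels of 1.17 and 0.85 on the crossbred and Zebu arrays, a difference of 0.33 ± 0.20 (software error). The second gave -3.59 and -4.68, a difference of 1.09 ± 0.26. The remaining probe gave 0.96 and 0.03, a difference of 0.92 ± 0.20. All were above 0 and below 1.5, also with normexp background correction, where they were 0.41, 0.55 and 0.78. The first and the remaining probe share 7 bases at their ends, so they read adjoining stretches, yet their differences were 0.60 ± 0.29 apart.

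CATSPERD, named TMEM146 on the array, was the part with the smallest differences. Its brighter probe had levels of 1.55 and 1.30 on the crossbred and Zebu arrays, a difference of 0.26 ± 0.20 (software error), and its dimmer probe had -3.52 and -3.59, a difference of 0.07 ± 0.22. Neither exceeded the tolerance of 0.34.

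EFCAB9 had 4 probes, and 3 of them were higher by 1.5 or more. EFCAB9 forms a pair with the small subunit CATSPERZ on the inner side of the channel and takes part in its response to pH and calcium. The levels were 0.77 and -0.89 on the crossbred and Zebu arrays for the first probe, 1.501 and -0.04 for the second, 2.58 and 1.06 for the next, and -1.20 and -2.66 for the last. The differences were 1.66 ± 0.20, 1.54 ± 0.20, 1.52 ± 0.20 and 1.45 ± 0.15 (software error). They span 0.21 with an error of 0.25, so the 4 probes could not be told apart. The count of EFCAB9 probes past 1.5 turns on small amounts, and with normexp background correction the values were 1.55, 1.54, 1.45 and 1.17. Of the 3 probes with a position, those at chr20:4018265-4018324 and chr20:4018365-4018424 lie next to each other and the other, at chr20:4017207-4017264, lies before them on the plus strand.

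Further parts of the channel, and the transporter SLCO6A1, were measured by 1 or 2 probes each. C2CD6, named ALS2CR11 on the array, encodes a subunit with a C2 domain. Its levels were 3.75 and 2.85 on the crossbred and Zebu arrays in the first probe and 2.54 and 1.64 in the other, and both differences were 0.90 ± 0.20 (software error). TMEM262, matched by its gene number, encodes a small membrane protein of the channel. Its levels were 4.39 and 2.997 in the first probe and 4.34 and 3.07 in the other, with differences of 1.39 ± 0.20 and 1.27 ± 0.20. These 2 probes share 55 of their 60 bases and count as a single reading. SLCO6A1 is a sperm transporter of the family of the one that copurifies with the channel in mice. Its levels were 1.12 and 0.08, a difference of 1.05 ± 0.20.

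SLCO6A1 is counted with the channel in all counts and figures, although only its family links it to the channel here. CATSPERE and CATSPERZ were looked for by name and had no probe. Taking these parts with the pore, 20 probes for 10 genes passed the background mark on both arrays, and 20 of 20 had a difference above 0, 6 of them of 1.5 or more. Over all 36443 probes well above background on both arrays, 46.5% were above 0, 5.4% were higher by 1.5 or more and 1.56% were lower. The median over the 20 probes was 1.07, against -0.06 over all such probes. With the probes of a gene averaged, the median was 1.24 over the 4 pore subunits and 0.90 over the 5 auxiliary parts. Probes of 1 gene are not separate observations, and some of them overlap. Averaged over its probes, a part had a difference between 0.16 for CATSPERD and 2.25 for CATSPER3. For CATSPERD and CATSPER4 it was below the tolerance of 0.34, so the side of 0 is not settled for them.

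The data held 2 regions in which spots stood apart from their surroundings, a dark patch of the crossbred array and a bright patch. None of the 25 spots of the channel lay in a patch, and none was marked as saturated or as an outlier. The median difference of the 18 spots nearest to each lay between -0.49 and 0.34. Around CATSPER1 it was -0.11 and around CATSPER3 it was 0.11, and 0 and 1 of the 18 neighbours were higher by 1.5 or more.

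**Figure D3:**
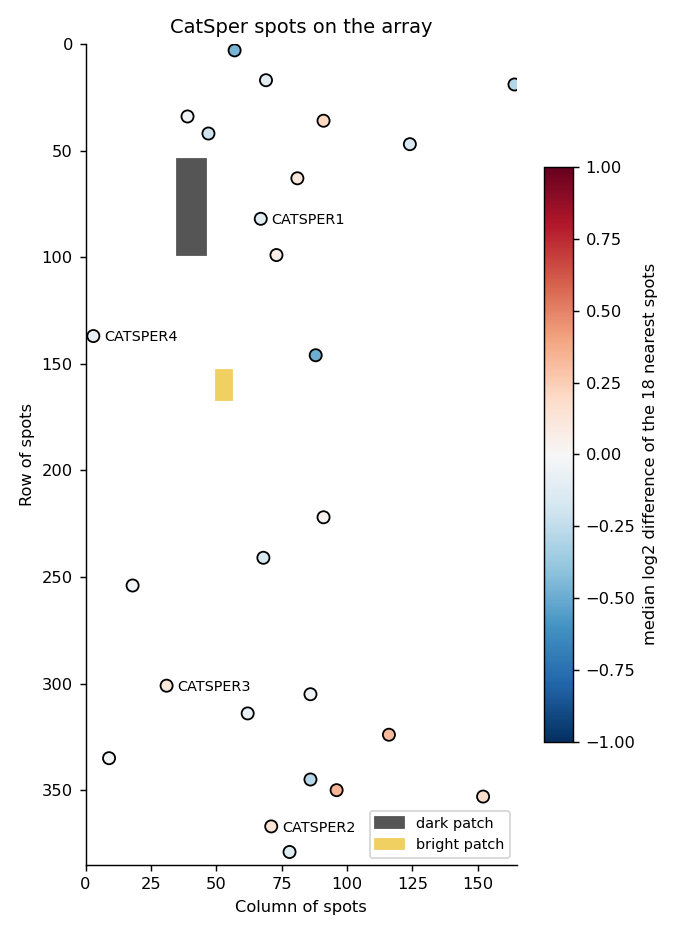
Place of the 25 spots of the channel on the array, by column and row, coloured by the median log2 difference of the 18 nearest spots, with the dark and the bright patch as filled blocks and the 4 named probes labelled. No spot lies in a patch, and the medians of the neighbours run from -0.49 to 0.34.

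The proteins that set the pH, the potential and the signals around CatSper in sperm were taken next, with 1 probe per gene name, the brightest. Over all 24758 gene names detected on at least 1 array, 7.25% were higher and 2.98% were lower by 1.5 or more, and the median difference was -0.06. In the list of sperm ion and pH handling, 11 of 12 genes were detected, 1 was higher, none was lower and the median was 0.72. The gene past 1.5 was ATP1A4, the sodium pump subunit particular to sperm, with levels of 2.79 and 0.70 on the crossbred and Zebu arrays and a difference of 2.09. ABHD2, the lipid hydrolase through which progesterone acts on CatSper in human sperm, had levels of 4.89 and 3.49 and a difference of 1.40. Its other probes gave 2.14 and 1.41.

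LRRC52, the partner of the sperm potassium channel KCNU1, had levels of -3.92 and -5.15 on the crossbred and Zebu arrays and a difference of 1.24. KCNU1 itself had 0.62, with levels of -5.21 and -5.83. These lie close to the lowest levels marked as well above background, -5.78 and -5.94. HVCN1, a proton channel, had 1.07 in its brighter probe and 0.21 in the other. SLC9A10, the sperm sodium-proton exchanger, had 0.51. The lowest value of the list was that of ATP2B4, a calcium pump that clears calcium from sperm, with levels of -3.92 and -3.61 and a difference of -0.31. SLC26A3 was not well above background on either array.

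In the list of sperm cAMP and calcium signalling, 14 of 18 genes were on the array and detected, 4 were higher, none was lower and the median was 0.59. PRKAR2A, a regulatory subunit of protein kinase A, had levels of 3.57 and 1.01 on the crossbred and Zebu arrays. Its difference was 2.56 in the brightest probe and 1.64 in the other. CABS1, a calcium-binding protein of spermatids, had levels of 5.40 and 2.98 and a difference of 2.42. AKAP4 and ROPN1, proteins of the fibrous sheath of the tail, had differences of 1.71 and 1.60. The list was not uniform. PRKACA, a catalytic subunit of the same kinase, had a difference of 0.06, and CALM3, which encodes calmodulin, had levels of 3.13 and 4.07 and a difference of -0.94. The 4 probes of CALM3 ran from -1.49 to 0.21, so they did not share a sign.

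Markers of the cells of the testis differed between the arrays in the same data, and bulk RNA does not separate fewer cells of a type from less RNA per cell. Of 20 spermatid markers 19 were on the array and detected, all above 0, with 12 higher by 1.5 or more and a median of 1.64. Over all detected gene names 47.0% lay above 0 and 7.25% were higher. The list was chosen with earlier results of these data known, and it holds genes that the paper reports as upregulated on these arrays. Its counts describe these genes and are not a separate test. The spermatid markers ran from 0.36 for PRM1, a protamine, to 2.92 for SPEM1, a protein of the maturing spermatid. For SPEM1 the paper's real-time PCR went the opposite way to its array. For TNP1 and TNP2, also on this list, that PCR was significantly higher in crossbred bulls. For CRISP2 it followed the array without a significant difference. The summed level of the spermatid markers was 9.86 in crossbred and 8.73 in Zebu testis on the log2 scale. The spermatocyte markers had a median of 0.46, none of 10 past 1.5 and summed levels of 5.72 and 5.29.

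The lists for the cells before meiosis and for the somatic cells had medians below 0 or near it, and most of them held members on both sides of 0. The median was -0.89 over 11 spermatogonia markers, with SALL4 and RET lower by 1.5 or more (RET, not well above background in crossbred testis, at least 5.43-fold lower), with 2 above 0, STRA8 at 0.59 and NANOS3 at 0.36, and the summed level was 5.12 in crossbred and 5.63 in Zebu testis. It was -0.51 over 8 Leydig cell markers, with CYP17A1 and HSD3B1 lower, HSD17B3 alone above 0 at 0.93, and summed levels of 6.49 and 7.06. It was -0.99 over 8 Sertoli cell markers, with DHH lower, TF alone above 0 at 0.24, and summed levels of 5.91 and 6.75. Over the 7 peritubular and smooth muscle markers it was -0.76, with none past 1.5, none above 0 and summed levels of 5.24 and 5.96. The endothelial markers had a median of 0.02, with 4 of 7 above 0 and summed levels of 0.11 and 0.13. The macrophage markers had a median of 0.13 and summed levels of 4.81 and 4.26. Of these, 4 of 7 lay above 0, among them AIF1, higher by 1.95, and CD14 at 0.56. Of 6 red blood cell markers 5 were on the array and 2 were detected, HBA lower by 1.5 or more and AHSP at 0.09. Of 8 epididymis markers 3 were on the array and 1 was detected, DEFB119 at 0.38. The part of the cell make-up of the pools in the differences of the CatSper transcripts was not tested.

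**Figure D4:**
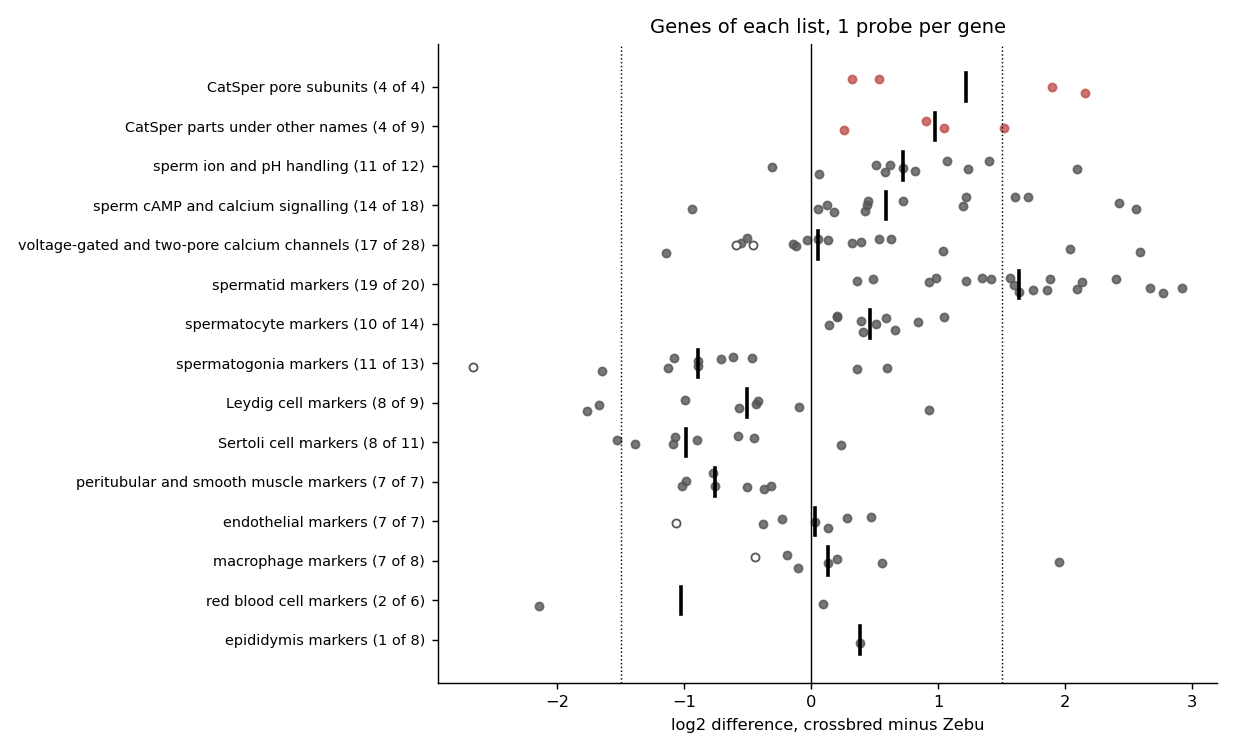
Log2 difference, crossbred minus Zebu, of the detected genes of each list, 1 probe per gene name, with the number detected of the number listed in brackets, open circles for genes well above background on 1 array, black bars at the medians and dotted lines at 1.5 and -1.5. The 4 CatSper pore subunits lie between 0.32 and 2.16, the spermatid markers between 0.36 and 2.92 and the peritubular and smooth muscle markers below 0.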

How the data were processed

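RNA pools of the testes of 3 crossbred and 3 Zebu bulls were each measured on 1 Agilent one-colour bovine array with Cy3, both on 1 slide scanned together. What the authors deposited per spot was the Feature Extraction software's processed signal, an intensity with the background subtracted and not normalized between arrays, with its error, its mean pixel intensity and that of the local background. They also deposited log2 values, the log2 of the processed signal of a probe less the 75th percentile of the array, with medians of -3.00 and -3.01. For a comparison, the log2 of the mean signal over the spots of a probe, with outlier spots kept, was computed here less the same percentile. The deposited values differed from it by a median of 0.0015, by more than 0.01 for 4161 probes and by 3.96 at most.

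Here 62976 spots per array were read, of which 61657 were not controls, 72.0% (crossbred) and 74.3% (Zebu) of them well above background. The software marked 13 spots as outliers, which were left out. Spots of 1 probe entered as the mean of their log2 processed signals, from which the 75th percentile over probes was taken off. Probes were found by gene name, then by the symbol or full name in the description or by gene number. Of the descriptions, 4 also cite a next best hit, and 3 of those hits belong to other genes in the RefSeq table. A gene of a list was read from the probe with the highest mean signal. RET passed the background mark in Zebu testis alone.

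The genes named are all CATSPER probes and list members that passed 1.5, that bound their list, or that a sentence on the channel needed. The members and lists were chosen with earlier results of these data known. Alternatives were background correction by normexp (offset 50), other shifts, quantile normalization, the authors' values, other thresholds, filters and probes of a gene. The steps were also run on simulated data with shifts well past the threshold. That run checked the code and does not bear on the precision of the differences given. Python 3.11.15, numpy 2.4.6, pandas 2.3.3, R 4.3.3 and limma 3.58.1 were used. Real-time PCR was not analysed here.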

Additional observations from a re-analysis of the deposited data

How the results depend on the processing

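No paired analysis was possible because each group has 1 array. The differences of the named CATSPER1 to CATSPER4 probes kept their sign and moved by less than the SD between spots, 0.34, under the alternatives run, with the further probes of CATSPER2 and CATSPER3 put in their place in 1 of these each. They ran from 1.73 to 1.90 for CATSPER1, from 0.45 to 0.63 for CATSPER2, from 2.05 to 2.34 for CATSPER3 and from 0.13 to 0.39 for CATSPER4. The further CATSPER3 probe moved by more, from 2.34 to 1.12 under normexp, and with it the mean of both CATSPER3 probes from 2.25 to 1.59. The median over CATSPER probes ran from 1.07 to 1.22. The highest CATSPER4 value, 0.39 under quantile normalization, compares with a software error of 0.36. The count of CATSPER probes past the threshold in use was 2 in 12 of 13 alternatives and 1 at a threshold of 2. The 12 include thresholds of 1 and of a linear fold of 1.5. Each named probe has 1 spot, outside the patches, not an outlier and well above background on both arrays. The settings on spots, outliers, patches and dim probes could therefore hardly change this count. Of the 20 probes of the channel, 20 lay above 0 under each of the scalings and corrections, and 4 to 6 were past 1.5, with 4 under normexp. Over all detected probes, against 2444 higher and 1190 lower, normexp gave 1340 and 257, a threshold of 1 gave 4580 and 3599, a threshold of 2 gave 1185 and 531, and a linear fold of 1.5 gave 7966 and 9073. With only probes well above background on both arrays, 567 were lower. Normexp moved the share of higher among all calls from 67.3% to 83.9%, and with both arrays above background it was 77.6%. The voltage-gated channels past 1.5 numbered 2 with the settings used, 0 under normexp and 0 with the mean over probes. The alternatives that use further probes of CATSPER2 and CATSPER3 were chosen after seeing the data. Signal over background limits CATSPER4 and CATSPERB.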

Other observations

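Other calcium channels of the cell membrane and of acidic organelles were read for the same arrays. In the list of voltage-gated and two-pore calcium channels, 24 of 28 genes were on the array and 17 were detected. With the brightest probe of each gene, 9 of the 17 lay above 0, 2 were higher by 1.5 or more and none was lower. The median was 0.05 against 1.22 over the CatSper pore subunits. These counts are 52.9% above 0 and 11.8% higher, against 47.0% and 7.25% of all detected gene names, of which 2.98% were lower. With normexp background correction 0 of these channels were higher by 1.5 or more. CACNB4, a cytoplasmic beta subunit, had levels of -2.58 and -4.61 on the crossbred and Zebu arrays, a difference of 2.04, and its other probe above background gave 2.13. CACNA2D3, an alpha-2-delta subunit, did not give 1 answer. Its brightest probe had levels of -1.03 and -3.62, a difference of 2.59, while another probe well above background on both arrays had -1.90 and -1.83, a difference of -0.06. By the brightest probe, the lowest value among the detected channels was that of CACNA1G, a low-voltage-activated channel. Its levels were -5.47 and -4.33, a difference of -1.15. The crossbred level lies close to the lowest one marked as well above background, -5.78. The other CACNA1G probe well above background on both arrays gave -0.45. A further CACNA1G probe, well above background in Zebu testis alone, had levels of -6.52 and -4.26 and a difference of -2.26. A dimmer CACNG1 probe, also above background in Zebu testis alone, gave -2.44, while its brightest probe gave 0.53. These 2 probes were lower past 1.5, but their crossbred levels lay below the background mark. TPCN1, a two-pore channel of endolysosomes, had a difference of 1.03, and TPCN2 had 0.05.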
